A study of Mus musculus with 10 samples.

Results

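miR-1, miR-133 and miR-206 are known as muscle miRNAs, miR-1 and miR-133 from heart and skeletal muscle and miR-206 best from skeletal muscle. Their entries in the small RNA table of a mouse heart series were taken by name: every mature miRNA called miR-1a, miR-1b, miR-133a, miR-133b or miR-206, with both arms of each hairpin. The table listed 11 such miRNAs among 1908 in all. Of the 11, 5 reached 10 counts in some library and 6 stayed under 10 counts in every library. The 5 are mmu-miR-1a-3p, mmu-miR-133a-3p, mmu-miR-133a-5p, mmu-miR-133b-3p and mmu-miR-206-3p, written below without the species prefix.

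Heart tissue of C57BL/6 mice was sampled at embryonic day 10.5 (E10.5), day 14.5 (E14.5) and day 17.5 (E17.5), in newborns and in adults, with 1 small RNA library per stage. No treatment or altered genotype is given, nor the adult age or the number of hearts behind a library. The labels give the source as heart tissue and the cell type as cardiomyocyte. The heart muscle miRNAs miR-208a-3p, miR-208b-3p and miR-499-5p had counts at all 5 stages and summed to between 3603 and 7547 counts per 1000000 miRNA counts (CPM), and miRNAs used as marks of other cells were also present, among them endothelial miR-126a-3p at 20571 to 36951 CPM. The libraries held between 10479309 and 12953867 miRNA counts. With 1 library per stage no difference was tested, and "higher" and "lower" describe these libraries. In whole tissue, fewer cells of a type and less RNA per cell cannot be told apart. Intervals are exact 95% intervals and cover counting error only.

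A mature miRNA guides a silencing complex to messenger RNAs that pair with its seed, the bases from position 2 to 8. The 3p arms of miR-1 and miR-206 are known to share a seed, as are those of miR-133a and miR-133b, while the 5p arms have other seeds. In mouse heart, miR-1 is known to restrain Hand2, a factor for growth of the ventricles, and miR-133a to restrain the serum response factor and cyclin D2, which act in muscle gene expression and cell division. miR-206 is best known from skeletal muscle, where it favours differentiation. The miRNAs are made from paired genes: RefSeq (GRCm38.p6) places Mir1a-1 and Mir133a-2 within the long non-coding Mir1a-1hg on chromosome 2 and Mir206 and Mir133b within the long non-coding Lincmd1 on chromosome 1. A further pair, Mir1a-2 and Mir133a-1, lies within Mir133a-1hg and the protein-coding gene Mib1, where Mir1b overlaps Mir1a-2.

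RefSeq sequences (GRCm38.p6) were used for 5 of the 11 members, those of Mir206, Mir133b and the 5p arm of Mir1a-1. They are shown because miR-206-3p and miR-133b-3p come from 1 locus and had very different courses over the stages, and because 3 of the 5p arms were at or near 0. Capitals mark the seed.
miR-206-3p: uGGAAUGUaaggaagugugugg
miR-133b-3p: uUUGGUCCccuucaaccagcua
miR-206-5p: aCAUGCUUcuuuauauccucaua
miR-133b-5p: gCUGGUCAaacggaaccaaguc
miR-1a-1-5p: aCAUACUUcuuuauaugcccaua
miR-206-3p lies at chr1:20679055-20679076 and miR-133b-3p at chr1:20682834-20682855, both on the plus strand, and 3686 bases separate the hairpins. miR-1a-1-5p lies at chr2:180389057-180389079, also on the plus strand. The 5p arms of miR-206 and miR-1a-1 have 23 bases each and differ at 3 of them. Counted from the 5′ end, with the base of miR-206-5p first, the differences are G5A, C17G and U19C, of which G5A is in the seed. Of the 1603 miRNAs in the count table that have a RefSeq sequence, miR-6349 and miR-6382 also carry the seed of miR-206-3p, and both had 0 counts in every library.

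The hairpins of Mir206 and Mir133b are shown to place the arms. Capitals mark the 5p arm and then the 3p arm.
Mir206: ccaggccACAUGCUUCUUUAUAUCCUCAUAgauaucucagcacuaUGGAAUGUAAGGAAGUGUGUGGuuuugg
Mir133b: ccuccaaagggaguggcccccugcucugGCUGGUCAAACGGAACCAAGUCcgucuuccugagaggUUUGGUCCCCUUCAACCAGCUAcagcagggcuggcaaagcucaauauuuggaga

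miR-1a-3p was the most abundant member at every stage. It had 441857 counts at E10.5, then 499073 at E14.5 and 743823 at E17.5, and after birth 1095184 in the newborn and 2911605 in the adult. In the same order its level was 42165, 43298, 57891, 86014 and 224767 CPM. The level was higher at each later stage, and the order of stages was the order of age. In CPM, E14.5 was at 1.03 times E10.5 (1.02 to 1.03), the E17.5 level was 1.34 times that of E14.5 (1.33 to 1.34), the newborn level 1.49 times that of E17.5 (1.48 to 1.49), and the adult level 2.61 times the newborn one. The size of the steps depended on the scaling, most of all for the adult. Median-ratio scaling sets libraries level by the typical miRNA with counts in all of them. Under it the log2 differences of the first 3 steps were 0.74, 0.66 and 0.80, against 0.04, 0.42 and 0.57 in CPM. That of the adult against the newborn was 2.59, against 1.39 in CPM. Among all listed miRNAs miR-1a-3p ranked 3 by count at E10.5, then 7 at E14.5 and 4 at E17.5, with rank 2 in the newborn and rank 1 in the adult.

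Together the 11 members took 4.93% of all miRNA counts at E10.5, then 5.11% at E14.5 and 6.57% at E17.5, and 9.61% in the newborn library and 23.9% in the adult one. Nearly all of this was miR-1a-3p. The other 10 members made up 0.718%, 0.778%, 0.777%, 1.01% and 1.41% at the same stages. Such a share lowers the CPM of every other miRNA in the adult library, so the values are also given below on scales that do not depend on the library total.

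**Figure D1:**
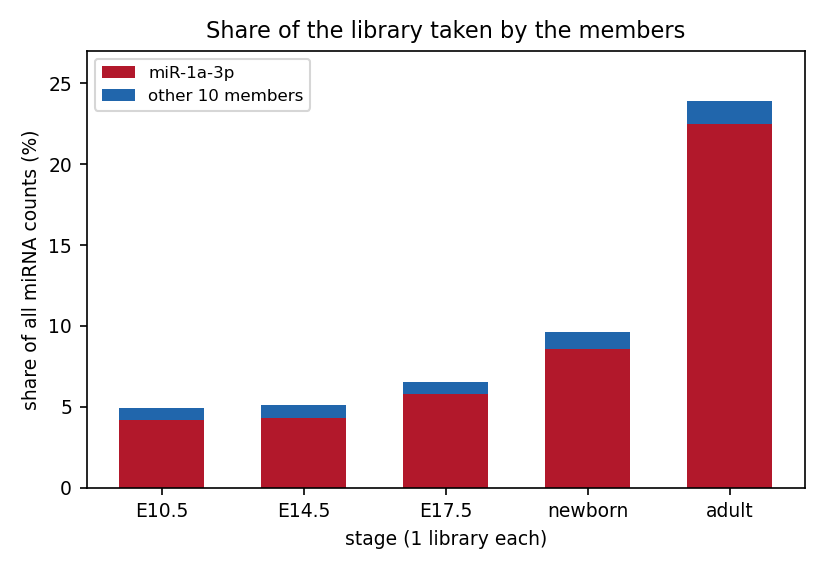
Share of all miRNA counts (percent, vertical axis) taken by miR-1a-3p (red) and by the other 10 members together (blue) in the 1 library of each stage (horizontal axis). The stacked bars reach 4.93% at E10.5 and 9.61% in the newborn, against 23.9% in the adult, and the blue part reaches 1.41% at most.

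miR-133a-3p, transcribed together with miR-1a, was the second most abundant member. It had 64772 counts at E10.5, then 51518 at E14.5 and 83749 at E17.5, and after birth 116788 in the newborn and 170012 in the adult, or 6181, 4470, 6518, 9172 and 13124 CPM. E14.5 was the lowest stage, and the adult level was 2.94 times that of E14.5 (2.91 to 2.97). E17.5 and E10.5 were close, with a ratio of 1.05 (1.04 to 1.07). From E17.5 on each stage was higher than the one before, by 1.41-fold in the newborn and 1.43-fold in the adult.

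miR-133b-3p, from the other locus, followed the same course at a lower level. It had 2628 counts at E10.5, then 1990 at E14.5 and 3375 at E17.5, and after birth 4791 in the newborn and 6569 in the adult, or 251, 173, 263, 376 and 507 CPM. E14.5 was again lowest and the adult highest, 2.94 times as high (2.79 to 3.09). E17.5 and E10.5 did not differ beyond counting error, with a ratio of 1.05 (0.995 to 1.10).

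miR-206-3p had a course of its own, with a maximum at E14.5. It had 3802 counts at E10.5, then 32824 at E14.5 and 7528 at E17.5, and after birth 2221 in the newborn and 1073 in the adult, or 363, 2848, 586, 174 and 82.8 CPM. E14.5 stood apart from all other stages: it was 4.86 times as high as E17.5 (4.74 to 4.98), the next in order, and 34.4 times as high as the adult (32.3 to 36.6). The order below it was E17.5, E10.5, newborn and adult, with ratios between neighbours of 1.61 (1.55 to 1.68), 2.08 (1.97 to 2.19) and 2.11 (1.96 to 2.27). Its rank by count went from 147 at E10.5 to 51 at E14.5 and 135 in the adult.

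**Figure D2:**
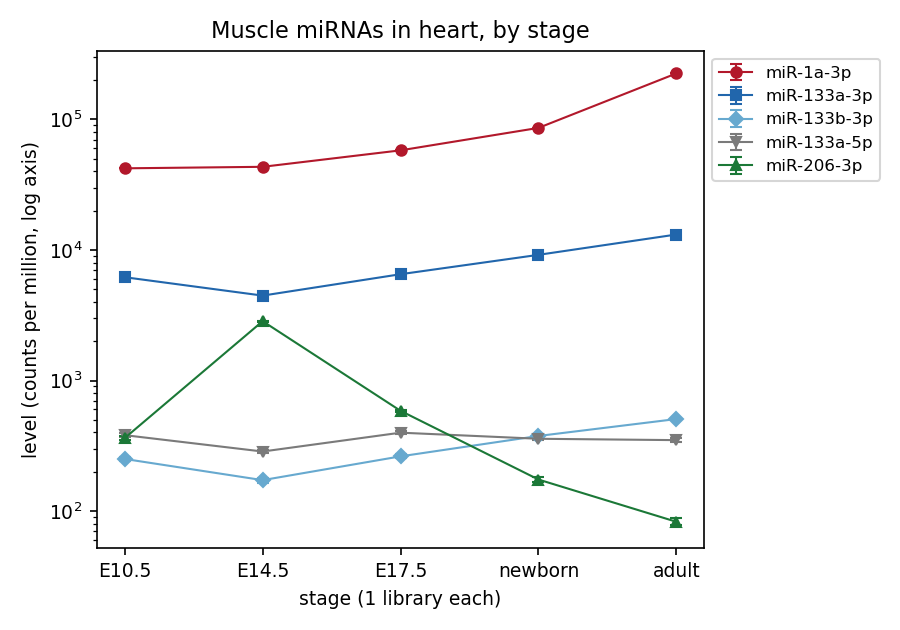
Level in CPM (log axis) of the 5 members with at least 10 counts in a library, at each stage, with 1 library per point. Bars are exact 95% Poisson intervals of the count and are mostly smaller than the symbols. miR-206-3p peaks at E14.5 with 2848 CPM, the stage at which miR-133a-3p (4470 CPM) and miR-133b-3p (173 CPM) are lowest on this scale.

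miR-133a-5p, the less abundant arm of miR-133a, was the flattest member. It had 3999 counts at E10.5, then 3296 at E14.5 and 5123 at E17.5, and after birth 4559 in the newborn and 4528 in the adult, or 382, 286, 399, 358 and 350 CPM. Its highest level, at E17.5, was 1.39 times the lowest, at E14.5 (1.33 to 1.46). In CPM the newborn and the adult did not differ beyond counting error, with a ratio of 1.02 (0.983 to 1.07). Under median-ratio scaling the adult was higher than the newborn, by 1.17 on the log2 scale.

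The remaining 6 members were near or at the limit of detection. miR-206-5p and miR-133b-5p had 0 counts in all 5 libraries. The interval of such a 0 reaches up to 0.352 CPM in the shallowest library, E10.5, and 0.285 CPM in the deepest, the adult. miR-206-5p was thus without a count at E14.5 too, where the other arm of its hairpin had 32824. miR-1a-1-5p, the other arm of 1 of the hairpins that give miR-1a-3p, had between 6 and 9 counts. miR-1a-2-5p had between 0 and 2 counts, miR-1b-3p between 0 and 4, and miR-1b-5p between 0 and 5. No stage difference was detectable at this depth for these 6, and they were left out of the comparisons between stages.

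Summed by shared seed, the peak of miR-206-3p added little to the level of the miR-1 and miR-206 group, because miR-1a-3p exceeded it at every stage. miR-1a-3p and miR-206-3p together were at 42527 CPM at E10.5, then 46146 at E14.5 and 58476 at E17.5, and after birth 86188 in the newborn and 224850 in the adult. Of that sum miR-206-3p made up 0.853% at E10.5 (0.826% to 0.881%), 6.17% at E14.5 (6.11% to 6.24%), 1.00% at E17.5, then 0.202% in the newborn and 0.0368% in the adult. Put as a ratio of counts, miR-1a-3p was 116 times miR-206-3p at E10.5, 15.2 times at E14.5 and 2714 times in the adult. The miR-133 group, miR-133a-3p and miR-133b-3p together, was at 6432, 4642, 6781, 9549 and 13632 CPM.

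Ratios of counts within a library do not depend on the scaling between libraries. A ratio of 2 different miRNAs also holds any difference in how well each is captured, which was not measured here, so its change over the stages is described rather than its size. The ratio of miR-1a-3p to miR-133a-3p, which are encoded together at their loci, was 6.82 at E10.5 (6.77 to 6.88), 9.69 at E14.5 (9.60 to 9.78), 8.88 at E17.5 (8.82 to 8.95), 9.38 in the newborn (9.32 to 9.43) and 17.1 in the adult (17.04 to 17.21). It lay in a narrow band from E14.5 to the newborn, was lower at E10.5 and was higher in the adult. None of these intervals overlap.

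The ratio of miR-133a-3p to miR-133b-3p, which are made from different loci, was nearly the same in all libraries. It was 24.6 at E10.5 (23.7 to 25.6), 25.9 at E14.5 (24.8 to 27.1), 24.8 at E17.5 (24.0 to 25.7), 24.4 in the newborn (23.7 to 25.1) and 25.9 in the adult (25.3 to 26.5). The highest of these values was 1.06 times the lowest, while the CPM of each changed 2.94-fold. Put as a share, miR-133b-3p made up between 3.72% and 3.94% of the sum. The pair is known to be nearly identical in sequence, and the sources used here do not say how reads that could come from either were assigned, so the level of miR-133b-3p on its own is uncertain.

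By contrast, miR-206-3p and miR-133b-3p lie in the same long non-coding gene, and their ratio was anything but constant. It was 1.45 at E10.5 (1.38 to 1.52), 16.5 at E14.5 (15.8 to 17.3), 2.23 at E17.5 (2.14 to 2.32), 0.464 in the newborn (0.441 to 0.488) and 0.163 in the adult (0.153 to 0.174). The highest value was 101 times the lowest. In CPM, miR-206-3p was at its maximum and miR-133b-3p at its minimum at E14.5. Under median-ratio scaling miR-133b-3p was lowest at E10.5, at 104 against 117 at E14.5. In profile over the stages, miR-133b-3p as counted was near miR-133a-3p and far from miR-206-3p: the root mean square distance of their log2(CPM + 1) values, each minus its own mean, was 0.036 to miR-133a-3p and 2.24 to miR-206-3p. Reads of miR-133a-3p counted as miR-133b-3p would give such nearness too. These ratios and distances therefore carry the limit on miR-133b-3p given above.

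The arms of miR-133a also changed in proportion. miR-133a-5p made up 5.81% of both arms at E10.5 (5.64% to 5.99%), 6.01% at E14.5 (5.82% to 6.22%) and 5.76% at E17.5 (5.61% to 5.92%), then 3.76% in the newborn (3.65% to 3.87%) and 2.59% in the adult (2.52% to 2.67%). The 3 embryonic values overlap, and the newborn and adult values lie below them and apart from each other. Between E10.5 and the adult the 5p to 3p ratio fell by 1.21 on the log2 scale. Changes of this size were common: among 64 arm pairs with at least 10 counts per arm and 1000 for their sum in every library, the quartiles of the same measure were -1.06 and 0.93, and miR-133a was the 26th by absolute size. For miR-1a the 5p arms summed to between 6 and 11 counts in each library, too few to follow the proportion beside 441857 or more counts of miR-1a-3p.

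**Figure D3:**
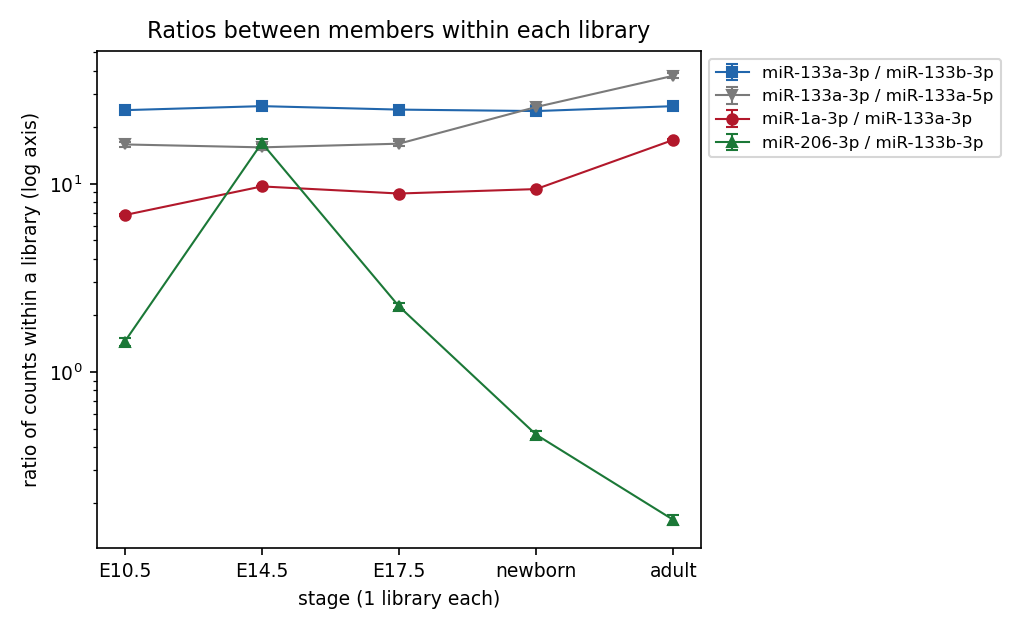
Ratio of counts of named members within the library of each stage (log axis), with exact 95% binomial intervals as bars. miR-133a-3p to miR-133b-3p stays between 24.4 and 25.9, miR-206-3p to miR-133b-3p runs from 16.5 at E14.5 to 0.163 in the adult, and miR-1a-3p to miR-133a-3p reaches 17.1 in the adult.

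Set against all miRNAs, the members were compared by the difference of log2(CPM + 1), with 1 (2-fold) as the limit for calling a miRNA higher or lower, where either stage had at least 10 counts. From E10.5 to E14.5, 1 of 5 members was higher and 0 were lower, against a background of 2.88% higher and 27.9% lower among 763 miRNAs. The member was miR-206-3p, whose log2 difference of 2.97 was the third highest of all. From E14.5 to E17.5 miR-206-3p was the only member called, at -2.28, in a step where 5.60% of 679 miRNAs were lower and 1.03% higher. The other 4 members had log2 differences between 0.42 and 0.60, under the limit, beside a median of -0.20 over all miRNAs.

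Across birth, from E17.5 to the newborn, miR-206-3p was again the only member called, at -1.74, where 9.51% of 673 miRNAs were lower and 5.05% higher. miR-1a-3p (0.57), miR-133b-3p (0.52) and miR-133a-3p (0.49) had values of like size, and miR-133a-5p had -0.15. From the newborn to the adult, miR-1a-3p was called higher at 1.39 and miR-206-3p lower at -1.07, against 6.76% higher and 43.2% lower among 636 miRNAs. With so many miRNAs lower, the value of miR-206-3p was close to the median of all, -0.85.

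Over the whole span, from E10.5 to the adult, 3 members were higher (miR-1a-3p at 2.41, miR-133a-3p at 1.09 and miR-133b-3p at 1.01), 1 was lower (miR-206-3p at -2.12) and miR-133a-5p was at -0.13. The background was 7.97% higher and 68.2% lower of 765 miRNAs, and the median difference was -1.59. The share of members called higher lay above that background, but miR-133a-3p and miR-133b-3p were near the limit and may share reads. With a 4-fold limit 1 member was higher, beside 27 miRNAs over all. A lower call such as that of miR-206-3p was the usual course. miR-1a-3p had the 15th highest value of all, miR-133a-3p the 55th and miR-206-3p the 471st.

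**Figure D4:**
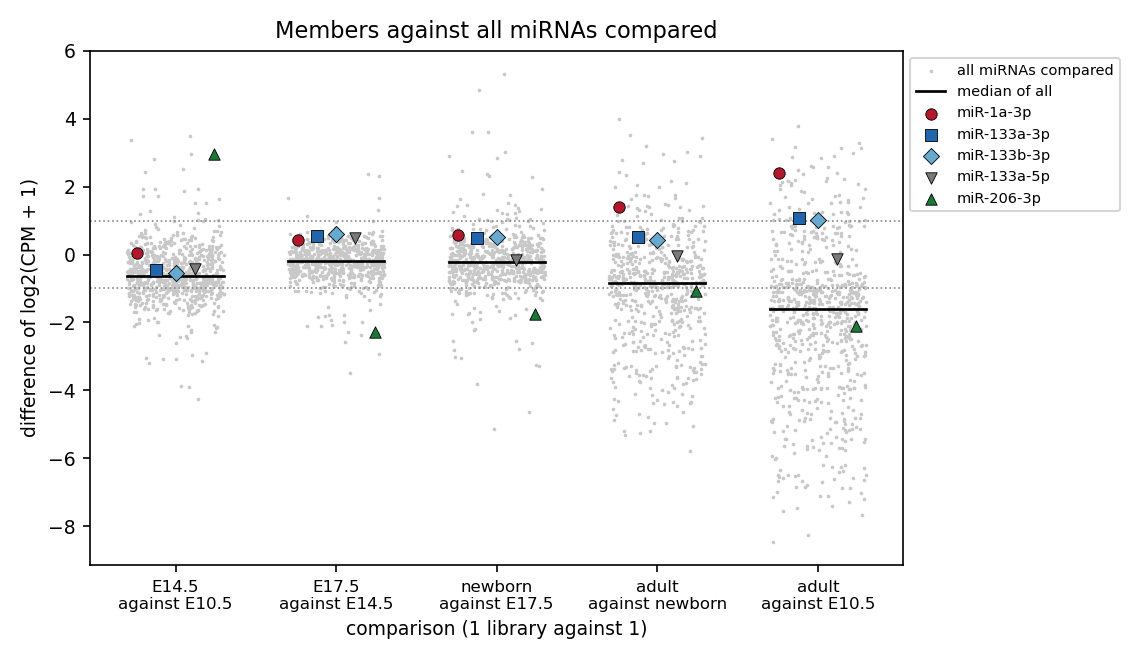
Difference of log2(CPM + 1) between the later and the earlier library for all miRNAs compared (grey points) with their median (black line), and for the 5 members (coloured symbols), in each of the 5 comparisons. Dotted lines mark the 2-fold limit of 1 and -1. miR-206-3p lies at 2.97 in the first comparison and at -2.28 in the second, and the median of all miRNAs falls to -1.59 in the last.

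The scale also changed calls in the adult library. Under median-ratio scaling the median over all miRNAs in the adult against E10.5 was -0.38 and 24.8% were higher and 32.0% lower. On that scale miR-1a-3p had a log2 difference of 4.80, miR-133a-3p of 3.47, miR-133b-3p of 3.38 and miR-133a-5p of 2.25, all higher, and miR-206-3p had 0.25, so its lower call was lost and its sign turned. From the newborn to the adult 4 members were higher, where 23.4% of all miRNAs were higher and 27.7% lower, and miR-206-3p was at 0.13, also with its sign turned. The maximum of miR-206-3p at E14.5 stood on both scales: under median-ratio scaling its levels were 151, 1927, 470, 164 and 179 from E10.5 to the adult. The minimum of the miR-133 members at E14.5 did not: miR-133a-3p was then at 2570 at E10.5 and 3025 at E14.5, and miR-133b-3p at 104 and 117. With only the members left out of the total, miR-206-3p was at -1.80 in the adult against E10.5 and stayed lower.

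Among other muscle miRNAs, 8 were listed: both arms of miR-208a, miR-208b and miR-499, which lie in introns of myosin heavy chain genes, and of miR-486. In the adult against E10.5, 2 were higher and 3 lower in CPM (4 higher and 1 lower under median-ratio scaling). The higher ones were both arms of miR-486, also abundant in red blood cells, with miR-486-5p at 1.20 and miR-486-3p at 1.52 on the log2 scale. miR-499-5p, the most abundant of the myosin miRNAs, was at 2670, 3980, 5007, 6441 and 3752 CPM, highest in the newborn. None of the 5 members compared was highest there in CPM. Under median-ratio scaling miR-499-5p was higher in the adult than in the newborn, by 0.43 on the log2 scale. miR-208b-3p was at 704, 939, 1098, 831 and 24.3 CPM, highest at E17.5. The lower ones were miR-208b-3p at -4.80 on the log2 scale and the low-count arms miR-208a-5p (-1.36) and miR-208b-5p (-1.16), which had at most 62 and 13 counts. None of the 8 had its highest CPM at E14.5, where miR-206-3p did.

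By profile over the 5 stages, the miRNAs nearest to each member were looked up among the 442 others with at least 100 counts in a library, with the distance defined above. For miR-133a-3p, after miR-133b-3p, the nearest was miR-208a-3p (0.13), the intronic miRNA of the adult alpha myosin heavy chain gene, with 229, 152, 195, 275 and 395 CPM, and then miR-378a-5p (0.18), miR-497-5p (0.19), miR-30b-5p (0.19) and miR-126a-5p (0.23). For miR-1a-3p the nearest was miR-27a-3p (0.12), with 577, 630, 784, 1018 and 3439 CPM, followed by miR-150-3p (0.19), miR-547-3p (0.19), miR-24-2-5p (0.22) and miR-24-1-5p (0.22). miR-133a-3p stood at place 19 for miR-1a-3p, at a distance of 0.43. For miR-206-3p no miRNA was as near: the first were miR-375-3p (0.82), miR-449a-3p (0.90), miR-200c-3p (0.92), miR-365-1-5p (0.92) and miR-184-3p (1.02), and miR-1a-3p stood at place 427 of 442. This distance is not scaled to the size of the changes. The highest CPM was 34.4 times the lowest for miR-206-3p, against 5.33 for miR-1a-3p and 2.94 for miR-133a-3p. Distances of different members are thus not directly comparable.

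miR-375 and miR-200c are known from epithelia. The epithelial marks listed for other cells, miR-200b-3p and miR-205-5p, were also highest at E14.5 and lowest in the adult. They summed to 858 CPM at E10.5, then 1042 at E14.5 and 500.0 at E17.5, and after birth 32.6 in the newborn and 7.49 in the adult, where miR-205-5p had 0 counts. From E10.5 to E14.5 this sum went from 858 to 1042 CPM, and miR-206-3p from 363 to 2848 CPM. The profiles nearest to miR-206-3p varied widely in this step, where its own log2 difference was 2.97. Theirs were 1.53 for miR-375-3p, 3.37 for miR-449a-3p, 0.21 for miR-200c-3p, 0.41 for miR-365-1-5p and 0.49 for miR-184-3p. Of these, miR-449a-3p was at very low levels, with 0.0954 CPM at E10.5 and 10.3 at E14.5. The summed CPM of marks of other cells did not share the peak: at E14.5 the 6 of fibroblasts and smooth muscle summed to 123856 CPM against 141831 at E10.5, the blood marks to 169 against 236, and liver miR-122-5p was at 118 against 894. Most of the first sum was miR-143-3p. Among the blood marks miR-451a and miR-150-5p were lower, and miR-144-3p (36.4 against 26.6) and miR-223-3p (6.59 against 6.01) were higher. The sums were not computed under other scaling, which can change the direction of a small step. In the adult, where miR-1a-3p was highest, the fibroblast and smooth muscle marks summed to 69010 CPM against 103004 in the newborn, the endothelial marks to 38044 against 26509, the blood marks to 449 against 119 and the heart muscle marks to 4171 against 7547. The heart muscle marks went opposite ways in CPM: miR-208a-3p was higher (395 against 275), and miR-499-5p (3752 against 6441) and miR-208b-3p (24.3 against 831) were lower. The nerve marks, miR-9-5p and miR-124-3p, stood apart in the newborn library, at 13037 CPM against 837 or less at the other stages. The part of these other cells in the values of the members was not tested.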

How the data were processed

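The authors deposited whole-number counts for each mature miRNA, assigned to miRNAs before deposit, in a table that is named for FPKM. Per the labels' protocols, RNA of 18 to 30 nucleotides was ligated to adapters with molecular identifiers. The sources used here do not say whether reads or identifiers were counted. The submitters' processing notes name HISAT, HISAT2, Bowtie, Bowtie2 and RSEM and the build mm9, without roles. CPM are counts per library total, and a pseudocount of 1 was added before taking log2. Ratios carry exact Clopper-Pearson intervals, given the summed counts of both sides, and levels exact Poisson intervals. Comparisons took miRNAs with 10 or more counts at either stage, and the 2-fold limit is a rule of size, since 1 library per stage allows no count test. Calls and scaling were tested on simulated data in which equal numbers of miRNAs were raised and lowered. The adult against E10.5 comparison is far from such a balance, so that test does not cover it. All members, the other muscle miRNAs and the 5 nearest profiles to miR-1a-3p, miR-133a-3p and miR-206-3p are named, and the members and lists were chosen with earlier results of these data known. Sequences are RefSeq's, matched by name. Alternatives were median-ratio scaling over the 750 miRNAs with counts in all libraries, the total without the members, unscaled counts, pseudocounts of 0.1 and 5, filters of 1 and 100 counts and a 4-fold limit. The long RNA table was not used. Python 3.11.15, pandas 2.3.3 and scipy 1.17.1 were used.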

Additional observations from a re-analysis of the deposited data

How the results depend on the processing

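The number of members called higher or lower in a comparison kept within 1.5 times its value with unscaled counts, both other pseudocounts and both other filters, in all 5 comparisons. Under median-ratio scaling, 4 members instead of 1 were higher and 0 instead of 1 lower in the adult against the newborn, and 0 instead of 1 were lower in the adult against E10.5. The log2 difference of miR-206-3p turned from -1.07 to 0.13 and from -2.12 to 0.25 in these comparisons, because the scaling factor of the adult library differs. With the members left out of the total, 0 members were lower in the adult against the newborn. With a 4-fold limit, 0 members were lower in the newborn against E17.5, 0 were higher and 0 lower in the adult against the newborn, and 1 instead of 3 was higher in the adult against E10.5. Over all miRNAs, the 61 higher and 522 lower in the adult against E10.5 became 190 and 245 under median-ratio scaling, and the 43 and 275 in the adult against the newborn became 149 and 176. For E14.5 against E10.5, 22 and 213 became 52 and 34, and for E17.5 against E14.5, the 38 lower became 20, or 74 with a pseudocount of 0.1. For the newborn against E17.5, the 64 lower became 36 under median-ratio scaling and 111 with a pseudocount of 0.1. With a pseudocount of 5 or a filter of 100 counts the miRNAs lower in the adult against E10.5 numbered 321 and 302, and those lower at E14.5 against E10.5 numbered 111 and 137. With the 4-fold limit they numbered 313 and 25. Ratios within a library do not change with scaling. No paired analysis was possible because each stage has 1 library. Depth limits the 6 members under 10 counts.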
